A study of Rattus norvegicus with 24 samples.

Results

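The genes described here are 8 genes of zinc handling in the rat brain: the metallothioneins Mt1a, Mt2A and Mt3, the zinc exporters Slc30a1, Slc30a3 and Slc30a10, and the zinc importers Slc39a12 and Slc39a14. They were chosen by name from measured values of these same libraries, so their own levels and changes are given as a description, without a test. The 8 genes are 8 of the 25650 gene names in the deposited annotation, and 8 of the 29 names that belong to the metallothionein, SLC30 and SLC39 families. Each gene is represented by the locus that carries its name, and Slc30a10, which has several loci, by the locus with the highest mean.

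Messenger RNA of perilesional cortex and of ipsilateral thalamus was sequenced in adult Sprague-Dawley rats, male per the study's methods, 3 months after the operation. TBI was produced by lateral fluid-percussion in 6 rats, and 6 sham-operated rats had the same anesthesia, with pentobarbital and magnesium sulfate, and the same craniectomy without the impact. Each rat gave 1 library per region, 24 libraries in all. The methods describe MRI used to pick out TBI rats with a chronic inflammatory rim around the lesion, so the TBI group stands for such rats rather than for all injured rats.

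Metallothioneins are small cysteine-rich proteins that bind zinc and copper, and the transcription factor MTF-1 switches on their genes through short metal response elements when free zinc rises. Proteins of the SLC30 family (ZnT) move zinc out of the cytosol, either out of the cell or into vesicles, and proteins of the SLC39 family (ZIP) move it into the cytosol. In the forebrain Mt1 and Mt2 are known from astrocytes, Mt3 is the abundant brain metallothionein, and ZnT3, encoded by Slc30a3, fills the synaptic vesicles of zinc-releasing glutamatergic neurons.

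Metal response elements can be read in the promoters of the genes themselves. The windows came from RefSeq on the GRCr8 build, 250 bases before to 50 bases after the annotated start site, and 6 of the 8 genes had one; Slc30a10 and Slc39a14 had no window in the table. Both strands were searched for the core letters TGCACNC and TGCGCNC, where N is any base. The 250 bases before the start site are shown for the metallothioneins and for Slc30a1, the 4 genes whose windows held a core. Whether cores go with a difference in the injured tissue was not tested. Capitals mark the cores on either strand.
Mt1a (listed in RefSeq as Mt1, minus strand, chr19:10832976-10833225): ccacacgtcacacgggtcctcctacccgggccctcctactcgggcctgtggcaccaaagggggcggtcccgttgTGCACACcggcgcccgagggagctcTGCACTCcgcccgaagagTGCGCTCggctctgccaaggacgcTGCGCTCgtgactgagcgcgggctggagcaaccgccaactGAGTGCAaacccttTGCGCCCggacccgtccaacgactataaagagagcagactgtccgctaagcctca
Mt2A (minus strand, chr19:10838709-10838958): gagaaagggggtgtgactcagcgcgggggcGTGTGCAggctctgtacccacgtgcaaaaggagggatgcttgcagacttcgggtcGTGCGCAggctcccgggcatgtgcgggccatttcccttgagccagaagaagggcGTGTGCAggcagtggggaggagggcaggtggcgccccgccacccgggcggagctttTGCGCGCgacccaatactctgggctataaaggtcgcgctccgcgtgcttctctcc
Mt3 (minus strand, chr19:10856081-10856330): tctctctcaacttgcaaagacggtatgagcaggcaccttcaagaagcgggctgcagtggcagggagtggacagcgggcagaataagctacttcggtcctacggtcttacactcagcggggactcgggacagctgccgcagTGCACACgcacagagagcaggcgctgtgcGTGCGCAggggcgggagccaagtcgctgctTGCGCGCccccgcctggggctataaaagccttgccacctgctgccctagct
Slc30a1 (plus strand, chr13:106021769-106022018): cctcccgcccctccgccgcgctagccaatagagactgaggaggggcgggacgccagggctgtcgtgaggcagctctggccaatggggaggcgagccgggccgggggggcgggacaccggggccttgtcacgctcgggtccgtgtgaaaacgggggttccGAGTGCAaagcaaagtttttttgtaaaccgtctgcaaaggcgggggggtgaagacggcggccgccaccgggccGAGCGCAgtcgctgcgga

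The Mt1a window held 6 cores, 5 of them on the forward strand, between 176 and 49 bases before the start site. Mt2A held 4 cores, 3 of them on the reverse strand. Mt3 held 3 and Slc30a1 held 2. No core was found in the windows of Slc30a3 and Slc39a12, which says only that these letters are absent there. Among all 33469 promoter windows of the same length, 24.2% held at least 1 core, 5.39% at least 2 and 1.13% at least 3. At least 4 cores were found in 0.257% of windows and at least 6 in 0.0299%. The letters TATAAA stood on the forward strand within 32 bases of the start site in all 3 metallothionein windows and farther upstream in that of Slc39a12. Of all windows, 8.80% held these letters on the forward strand at any position, so that share does not measure nearness to the start site. These are letter matches in a reference sequence and not measured binding.

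**Figure D1:**
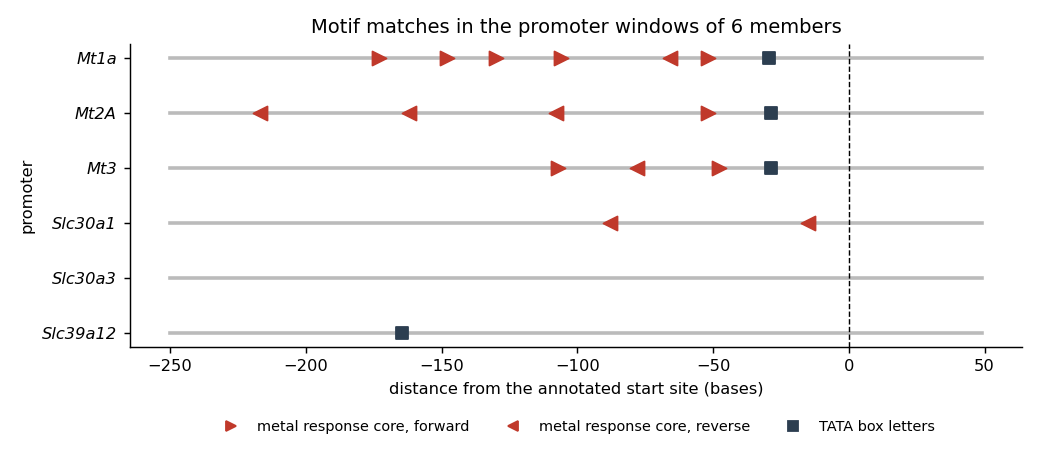
Motif matches in the promoter windows of 6 genes, by distance in bases from the annotated start site (dashed line). Triangles are metal response cores and point in the direction of their strand, and squares are TATAAA matches; Mt1a has 6 triangles, Mt2A 4, Mt3 3 and Slc30a1 2, and the bottom rows (Slc30a3 and Slc39a12) have none.

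Values are normalized counts, the fragments of a locus divided by a size factor of the library. The libraries held 30568927 to 54608922 fragments in named and unnamed loci together, with a median of 39660896.5. The summed level of 8 thalamic neuron markers was 4647 to 5120 normalized counts in sham cortex and 91831 to 125804 in sham thalamus, and that of 9 cortical glutamatergic markers was 71102 to 76078 and 14413 to 23112. Choroid plexus markers varied widely between libraries, from 733 to 277625 normalized counts, and TBI rat 45 had the highest sums of this list and of meningeal markers among the TBI libraries of both regions.

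Mt2A, which with Mt1 forms the inducible pair of metallothioneins, was higher in TBI rats in both regions. In the cortex its normalized counts ran from 402 over a median of 441 to 573 in sham rats and from 686 over 1102 to 1545 in TBI rats. In the thalamus they ran from 129 over 167 to 213 in sham rats and from 671 over 732 to 866 in TBI rats. All 6 TBI values lay above all 6 sham values in each region, and TBI rat 24 was the highest TBI rat in both. The mean was 463 ± 69.2 in sham and 1087 ± 285 in TBI cortex (SD, n = 6 per group), a log2 difference of 1.20 (SE 0.15), and 170 ± 28.4 in sham and 752 ± 78.2 in TBI thalamus, a log2 difference of 2.15 (SE 0.11). These differences and their SE are limma estimates on log2(normalized count + 1). The difference was 4.43-fold in the thalamus and 2.30-fold in the cortex, 0.95 apart on the log2 scale (SE 0.20). The unequal size went with unequal sham levels: sham thalamus was 1.44 lower on the log2 scale than sham cortex (SE 0.14) and all its values lay below those of sham cortex, while the TBI ranges of the regions overlapped. In bulk tissue, fewer cells of a type and less RNA per cell cannot be told apart.

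Mt1a, the neighbor of Mt2A in the genome, was also higher in TBI rats of both regions. In the cortex it ran from 36.0 over 61.9 to 99.8 normalized counts in sham rats and from 112 over 158 to 338 in TBI rats. In the thalamus it ran from 33.2 over 45.2 to 72.6 in sham rats and from 93.3 over 111 to 127 in TBI rats. The groups did not overlap in either region. The log2 difference was 1.41 (SE 0.25) in the cortex and 1.28 (SE 0.17) in the thalamus, or 2.66-fold and 2.43-fold. These values rest on 31 to 88 fragments per library in sham cortex, 94 to 406 in TBI cortex, 32 to 76 in sham thalamus and 92 to 155 in TBI thalamus, so counting error weighs on single values. One library, TBI rat 24 in the cortex with 338, stood far above the next at 173, and without it the cortical log2 difference was 1.21. Sham cortex and sham thalamus overlapped for Mt1a, with a log2 difference of -0.46 (SE 0.23).

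Mt3, which in the brain also binds zinc and was first known as a growth inhibitory factor of neurons, showed little difference between TBI and sham rats. Its normalized counts were 7060 to 9510 in sham cortex, 7793 to 10088 in TBI cortex, 7336 to 12802 in sham thalamus and 8337 to 12068 in TBI thalamus. The groups overlapped in every comparison. The log2 difference between TBI and sham rats was 0.05 (SE 0.09) in the cortex and 0.00 (SE 0.12) in the thalamus, and the sign turned without sham rat 32 in the cortex (-0.01) and without sham rats 34 or 38 or TBI rats 52 or 56 in the thalamus (-0.01 to -0.09). The 3 genes lie side by side on chromosome 19 of the deposited annotation, Mt1a at chr19:11277132-11278149, Mt2A at chr19:11283093-11283867 and Mt3 at chr19:11300014-11301422, with Mt4 at the end of a stretch of 40460 bases. Within that stretch Mt1a and Mt2A differed between TBI and sham rats by 2.30-fold to 4.43-fold, and Mt3 by 1.03-fold in the cortex and 1.00-fold in the thalamus.

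**Figure D2:**
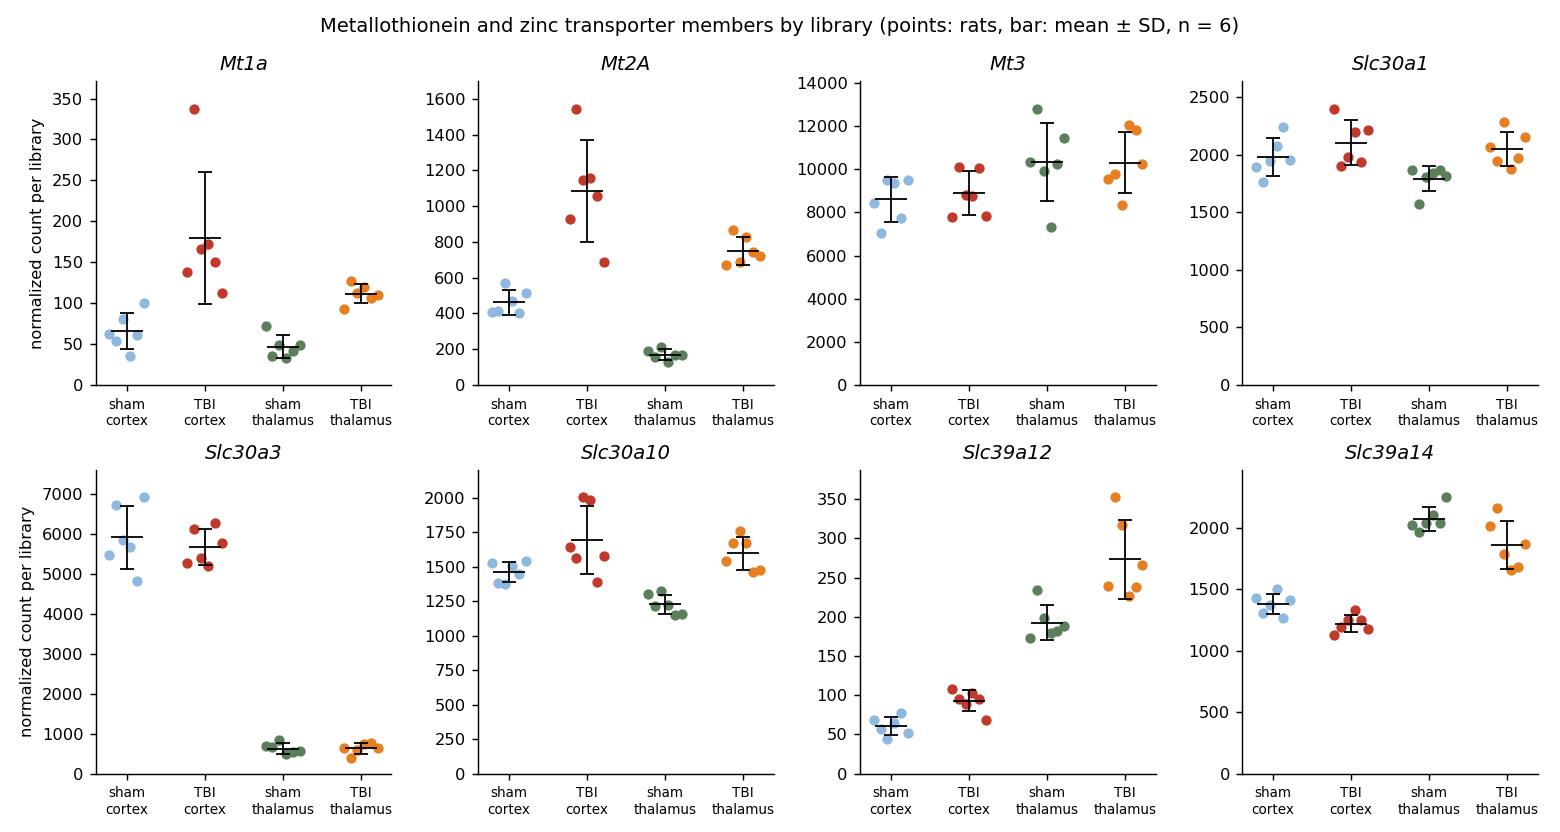
Normalized counts of the 8 genes in the 24 libraries; each point is a rat, each horizontal bar the mean with its SD (n = 6), and every axis starts at 0. Every TBI value of Mt1a and Mt2A lies above the sham values of its region, Mt3 overlaps throughout, and Slc30a3 separates the regions.

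Among the exporters, Slc30a1 encodes ZnT1, the plasma membrane exporter that is itself a textbook MTF-1 target. It ran from 1763 over 1946 to 2242 normalized counts in sham cortex and from 1901 over 2086 to 2398 in TBI cortex. In the thalamus it ran from 1569 over 1824 to 1864 in sham rats and from 1878 over 2015 to 2283 in TBI rats. The cortical groups overlapped, and the thalamic groups did not. The log2 difference was 0.09 (SE 0.07) in the cortex and 0.19 (SE 0.06) in the thalamus, 1.06-fold and 1.14-fold, and thus far smaller than that of Mt1a and Mt2A.

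Slc30a10 encodes ZnT10, a cell surface transporter known mainly for exporting manganese. In the cortex it ran from 1379 over 1476 to 1545 normalized counts in sham rats and from 1391 over 1613 to 2003 in TBI rats. In the thalamus it ran from 1150 over 1220 to 1322 in sham rats and from 1464 over 1607 to 1760 in TBI rats. The cortex overlapped and the thalamus did not, with log2 differences of 0.20 (SE 0.08) and 0.38 (SE 0.06). A second locus with the same name and the same listed span, chr13:108061340-108083820, had a mean of 601 ± 48.4 in sham cortex, 618 ± 39.9 in TBI cortex, 606 ± 35.4 in sham thalamus and 689 ± 48.6 in TBI thalamus. The annotation does not give the strand of either locus, so how reads were split between them is not known.

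Slc30a3 was the gene with the widest gap between regions. It ran from 4811 over 5756 to 6904 normalized counts in sham cortex and from 485 over 618 to 843 in sham thalamus, a log2 difference of -3.24 (SE 0.13). No library of one region reached into the range of the other. TBI rats had 5194 to 6258 in the cortex, inside the sham range, and 403 to 760 in the thalamus, where TBI rat 24 lay below all sham values and the other 5 within them. The log2 difference was -0.05 (SE 0.08) in the cortex and 0.00 (SE 0.16) in the thalamus, where TMM scaling gave 0.05 and leaving out TBI rat 24 gave 0.12.

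Of the importers, Slc39a12 encodes ZIP12, which is expressed in brain and is prominent in astrocytes. In the cortex it ran from 44.3 over 61.2 to 77.1 normalized counts in sham rats and from 69.0 over 94.8 to 107 in TBI rats. In the thalamus it ran from 173 over 185 to 235 in sham rats and from 226 over 253 to 352 in TBI rats. In each region 5 of the 6 TBI values lay above all sham values, and TBI rat 63 in the cortex and TBI rat 52 in the thalamus fell within the sham range. The log2 difference was 0.61 (SE 0.15) in the cortex and 0.49 (SE 0.12) in the thalamus. Sham thalamus exceeded sham cortex by 1.66 on the log2 scale (SE 0.14), or 3.16-fold, without overlap.

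Slc39a14 encodes ZIP14, which carries manganese and iron as well as zinc. Its normalized counts were 1271 to 1501 in sham cortex and 1128 to 1330 in TBI cortex, and 1966 to 2250 in sham thalamus and 1656 to 2167 in TBI thalamus. Its mean was lower in TBI rats of both regions, with log2 differences of -0.18 (SE 0.06) and -0.16 (SE 0.07), and the groups overlapped in both. Sham thalamus was above sham cortex by 0.58 on the log2 scale (SE 0.06), without overlap.

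Counted over the 8 genes, all TBI values lay above all sham values for 2 genes in the cortex (Mt1a and Mt2A) and for 4 in the thalamus (these and Slc30a1 and Slc30a10), and below them for 0 in either region. Among all tested loci this held for 7.02% above and 5.45% below in the cortex, and for 7.46% above and 10.7% below in the thalamus. Since the genes were chosen on these contrasts, nothing is read from their count.

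The injured tissue also differed in its cell markers. The summed level of 12 astrocyte markers was 449400 to 473204 normalized counts in sham cortex and 471770 to 522826 in TBI cortex, and 337121 to 379066 in sham thalamus and 462837 to 528366 in TBI thalamus. Of these 12 markers, 5 passed the limma test as higher and 3 as lower in the cortex, and 5 as higher and 0 as lower in the thalamus. For comparison, higher calls made up 14.3% of all loci tested in cortical libraries and 14.5% of those tested in thalamic libraries. Lower calls made up 14.9% of the cortical loci and 20.9% of the thalamic loci. Gfap, the filament protein of reactive astrocytes, was 2.26 higher on the log2 scale in both the cortex (adjusted p = 4.85e-07) and the thalamus (adjusted p = 2.33e-08). In the cortex the mean of Gfap was 12344 in sham and 59944 in TBI rats, and that of the whole sum 461634 and 489644. The cortical rise of Gfap was thus larger than that of the sum, and the other markers together were lower. In the thalamus Gfap had means of 22021 and 103947, and the sum 352219 and 496358. The 12 microglia markers summed to 16254 to 17189 in sham cortex against 22633 to 25294 in TBI cortex, and 17296 to 22160 against 35231 to 44751 in the thalamus, with 11 and 12 of 12 called higher. The 12 neuron markers summed to 367055 to 391680 in sham cortex against 266914 to 345241 in TBI cortex, and 254181 to 303659 against 161770 to 210550 in the thalamus. These sums differed between the same libraries as Mt1a, Mt2A and Slc39a12, and their part in the values of those genes was not tested.

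Choroid plexus markers differed widely between libraries of 1 group. The 10 choroid plexus markers had 0 called genes in either region by limma, and their sums ran from 937 to 25001 normalized counts in sham cortex, 1213 to 34537 in TBI cortex, 733 to 113369 in sham thalamus and 864 to 277625 in TBI thalamus. Otx2 was at or under 3 fragments in 3 of 6 sham and 5 of 6 TBI cortex libraries. Without both libraries of TBI rat 45, the log2 difference of Mt2A was 1.18 in the cortex and 2.17 in the thalamus, and that of Mt1a was 1.42 and 1.28. This rat had the highest TBI value of Slc30a10 in both regions and of Slc30a1 in the thalamus. Over 22 alternatives, this rat left out among them, the log2 difference of Slc30a10 ran from 0.15 to 0.25 in the cortex. In the thalamus it ran from 0.35 to 0.43, and that of Slc30a1 from 0.15 to 0.24. The 10 meningeal and fibroblast markers summed to 12835 to 16274 in sham cortex and 16764 to 36405 in TBI cortex. In the cortex 8 of them were called higher, against 14.3% of all loci tested there, and their part was not tested.

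The other genes of the 3 families were not among those chosen by name and were tested over the whole table with limma. Of 21 such genes, 16 passed the filter of a mean of at least 10 normalized counts. In the cortex 2 of them passed an adjusted p of 0.05 as higher after TBI and 3 as lower, with a median log2 difference of 0.05 against -0.01 over all tested loci, of which 14.3% were higher and 14.9% lower. In the thalamus 3 were higher and 6 lower, with a median of -0.02 against -0.02 over all loci, of which 14.5% were higher and 20.9% lower. That split of all thalamic loci turned with the scaling: 2259 were higher and 3257 lower with the deposited scaling, and 2796 higher and 2357 lower with TMM scaling.

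The widest change of these was that of Slc39a4, which encodes ZIP4, the importer that takes up dietary zinc in the gut. It had 8.13 to 15.4 normalized counts in sham cortex and 41.7 to 138 in TBI cortex, and 14.5 to 30.5 in sham thalamus and 63.9 to 116 in TBI thalamus. All TBI values exceeded all sham values in both regions. The log2 difference was 2.88 (SE 0.27, adjusted p = 7.05e-06) in the cortex and 2.06 (SE 0.19, adjusted p = 2.77e-06) in the thalamus, from 7 to 18 fragments per sham cortex library. Slc39a1, encoding the plasma membrane importer ZIP1, also had all 6 TBI values above the sham values of each region, with differences of 0.31 (SE 0.06, adjusted p = 0.00205) and 0.41 (SE 0.05, adjusted p = 2.85e-05) on the log2 scale in cortex and thalamus. Slc39a6 was the third higher gene in the thalamus, by 0.14 (SE 0.05, adjusted p = 0.0436), but it passed in 12 of 22 alternatives and was lost with no filter on low values and without any one of 9 libraries (adjusted p up to 0.0935).

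The lower genes in the cortex were Slc30a5, Slc30a9 and Slc39a10. Slc30a9, whose product is known from mitochondria, measured -0.16 in the cortex (SE 0.05, adjusted p = 0.0222) and -0.17 in the thalamus (SE 0.04, adjusted p = 0.0083) on the log2 scale. Slc30a5, whose product loads zinc into the secretory pathway, was lower in the cortex at -0.23 (SE 0.05, adjusted p = 0.00557) and measured -0.07 in the thalamus (adjusted p = 0.382). Slc30a4 was lower in the thalamus at -0.24 (SE 0.05, adjusted p = 0.00292), and its cortical value of -0.24 (adjusted p = 0.0511) missed the threshold. In the thalamus Slc39a3, Slc39a5, Slc39a7 and Slc39a13 were also lower, between -0.19 and -0.32 on the log2 scale. The genes Slc30a6, Slc30a7, Slc39a8, Slc39a9 and Slc39a11 did not pass in either region.

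Slc39a10, encoding the importer ZIP10, moved apart between regions. Its normalized counts ran from 11389 to 13621 in sham cortex and from 8967 to 11358 in TBI cortex, with no overlap, and from 4462 to 5031 in sham thalamus and from 4665 to 5558 in TBI thalamus, with overlap. The log2 difference was -0.35 (SE 0.06, adjusted p = 0.000599) in the cortex and 0.12 (SE 0.05, adjusted p = 0.0851) in the thalamus. The difference between regions was 0.46 (SE 0.08) with an adjusted p of 0.000536. Of the 16 genes this test called 1 higher and 2 lower in the thalamus relative to the cortex, the lower ones being Slc39a7 at -0.30 (adjusted p = 0.0191) and Slc39a13 at -0.30 (adjusted p = 0.0109), against 7.26% of all tested loci in either direction.

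**Figure D3:**
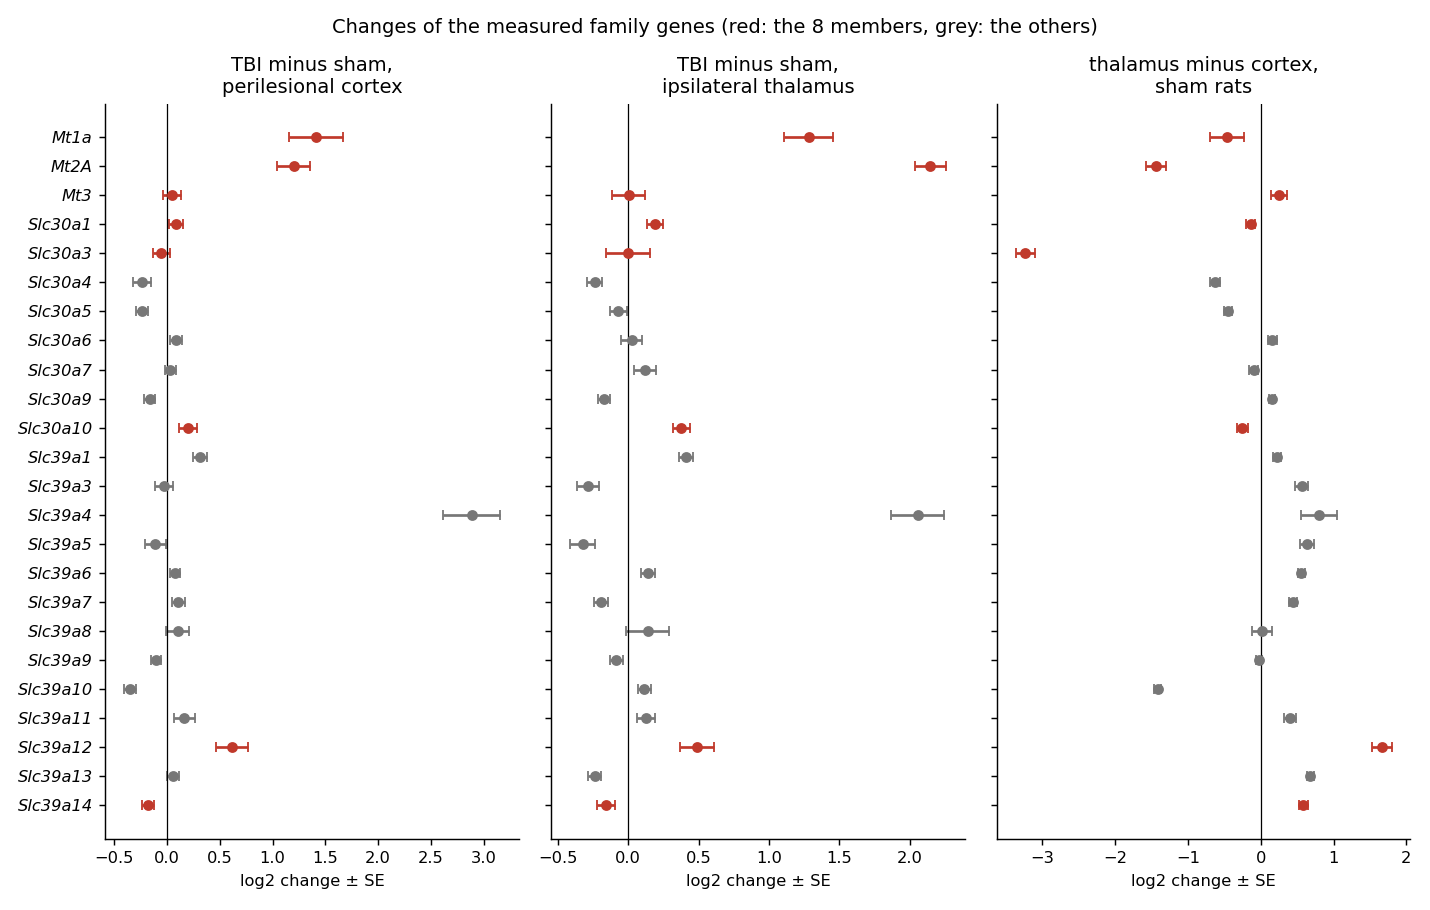
Log2 differences of the 24 measured genes of the metallothionein, SLC30 and SLC39 families, with SE from limma: TBI minus sham in cortex, TBI minus sham in thalamus, and thalamus minus cortex in sham rats. Red marks the 8 genes chosen by name and grey the other 16; Mt1a, Mt2A and Slc39a4 lie far to the right in both injury panels, and Slc30a3 far to the left in the regional one.

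In sham rats, thalamus and cortex differed for most of these genes. Of the 16 other genes, 10 were higher and 3 lower in sham thalamus, against 33.5% and 27.9% of all tested loci. Importers made up most of the 16 genes and also most of the higher ones. Examples of the higher ones were Slc39a13 at 0.68 (SE 0.05, adjusted p = 7.4e-12) and Slc39a6 at 0.55 (SE 0.05, adjusted p = 2.47e-10). The lower ones were Slc39a10 at -1.42 (SE 0.05, adjusted p = 1.28e-17), Slc30a4 at -0.63 (SE 0.07, adjusted p = 6.01e-08) and Slc30a5 at -0.45 (SE 0.06, adjusted p = 9.4e-08). The gap of Slc30a3, at -3.24, was wider than any of these 16.

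The genes at or near 0 were Mt1m, with 0 fragments in all 24 libraries, and Mt4, Slc30a2, Slc30a8, Slc39a2 and Gpr39, a zinc-sensing receptor, whose group means lay between 0.14 and 7.30 normalized counts. The depth of these libraries cannot show a change in them. Mtf1, the gene of the metal-responsive factor, had 975 to 1099 normalized counts in sham cortex and 1064 to 1192 in TBI cortex, and 1069 to 1580 in sham thalamus and 1267 to 1691 in TBI thalamus, with overlap in both. Its log2 difference was 0.11 (SE 0.05, adjusted p = 0.103) in the cortex and 0.23 (SE 0.09, adjusted p = 0.0497) in the thalamus. In the list of zinc sensing and metal response, 3 of 7 tested genes were higher and 0 lower in the cortex, and 4 higher and 1 lower in the thalamus, against 14.3% higher and 14.9% lower of all cortical loci tested and 14.5% and 20.9% of the thalamic ones. Mtf1 is 1 of the 4, and it passed in 10 of 22 alternatives (adjusted p up to 0.105). Hmox1, encoding the haem-degrading enzyme that metals and oxidants induce, rose by 1.08 (SE 0.15, adjusted p = 0.000137) in the cortex and by 1.33 (SE 0.11, adjusted p = 1.32e-06) in the thalamus. Slc7a11, encoding the cystine carrier, rose by 0.46 (SE 0.11, adjusted p = 0.00671) and 0.86 (SE 0.25, adjusted p = 0.017). Its TBI thalamus libraries were uneven, with a mean of 3818 ± 2338 normalized counts against 1936 ± 471 in sham thalamus (SD). The median of the list was 0.11 in the cortex and 0.23 in the thalamus. The list was drawn up with earlier results of these data known. Hmox1 and Slc7a11 are named for the largest called changes in it.

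Variation between rats of one group was not what the genes were chosen on, and 4 pairs of genes were correlated over the 6 rats of each group, 16 tests in all. In TBI cortex Mt1a and Mt2A gave Pearson's r = 0.925 (two-sided exact permutation p = 0.0139, adjusted 0.222) and Spearman's rho = 1 (exact p = 0.00278, adjusted 0.0444). Without rats 24 and 63, the farthest from the median of Mt1a, r was 0.975. In TBI thalamus r was 0.841 (exact permutation p = 0.0292, adjusted 0.222) and rho 0.771 (exact p = 0.103, adjusted 0.272), and r fell to 0.615 without rats 22 and 24. In sham cortex r was 0.461 and rho 0.429, and in sham thalamus r was 0.698 and rho 0.886, with adjusted exact permutation p of at least 0.267. Without the 2 farthest rats r was 0.898 and 0.635. No Pearson r of the 16 passed after adjustment, and 2 had an unadjusted p under 0.05. The rho of Mt1a with Mt2A in TBI cortex was the single value that passed. For Mt2A with Mt3, r was 0.801 in sham cortex, 0.774 in TBI cortex, 0.421 in sham thalamus and 0.491 in TBI thalamus. Mt1a with Mt3 gave 0.264, 0.717, 0.209 and 0.139 in the same order. The adjusted exact permutation p of these pairs with Mt3 was at least 0.222. Mt2A with Slc30a1 gave r = -0.631 in TBI cortex and -0.768 in TBI thalamus, neither past the threshold (adjusted exact permutation p of 0.339 and 0.222).

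**Figure D4:**
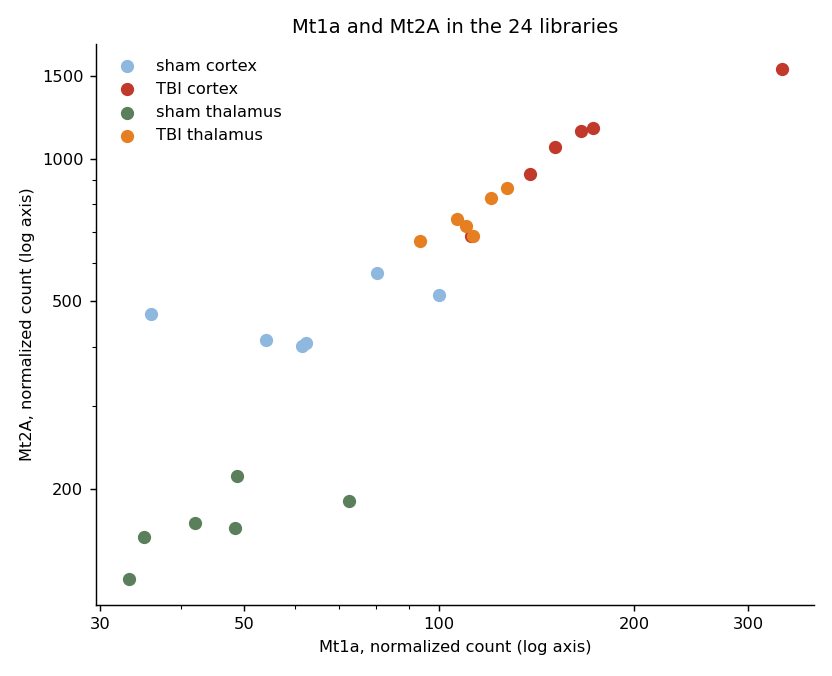
Mt2A against Mt1a in the 24 libraries, in normalized counts on log axes, colored by group. The sham thalamus libraries lie lowest in Mt2A (129 to 213), the TBI thalamus libraries lie inside or next to the lower range of TBI cortex, and TBI rat 24 in the cortex is the farthest upper right point.

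The loci most like each gene were sought among 13752 named loci with a mean of at least 50, by Pearson's r of log2 levels over the 24 libraries, as a description in which all points share the 4 groups and the library scaling. Mt2A was followed most closely by Aspg (r = 0.957), Ifi27l2b (0.951) and Ppp1r18 (0.947), and Mt1a by Pyroxd2 (0.913) and Atg16l2 (0.902). Slc30a3 was followed by Stx1a (0.995), Lhx2 (0.995) and Tcerg1l (0.995), and Slc39a14 by the joint locus of Dlc1 (0.973), by Mybpc1 (0.973) and by Clcn5 (0.970). Slc39a12 was nearest to Rrbp1 (0.971), Glud1 (0.968) and Plcd4 (0.967), Slc30a10 to Ifnar2 (0.910), and Slc30a1 to RGD1309995 (0.821) and then Cd2ap (0.819). After the group means were taken out, Mt3 lay closest to Rpl34 (0.953), Rps29 (0.920) and MRPL14 (0.915), genes of ribosomal proteins, Mt2A to Slc44a2 (0.820) and Slc39a12 to Pla2g7 (0.721) and Fabp7 (0.719).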

How the data were processed

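Polyadenylated RNA of 24 libraries (2 regions of 6 TBI and 6 sham-operated rats) was sequenced with a stranded kit. Per the labels and the study's methods, the authors aligned reads with TopHat2 2.0.11 and Bowtie2 2.2.2 and assembled them with Cufflinks 2.2.1. The labels name Rnor_5.0. The deposited table holds 1 signal per locus and library: a count of fragments, scaled by the authors with 1 size factor per library. A second deposited table pairs 42334 loci with names and positions, without strand or build, and positions are printed as listed. The 15693 loci without a name (37.1% of loci, 1.90% to 2.23% of values per library) were left out. In each library 100% of low values were whole multiples of 1 step, within 0.1 of a whole number, which gave 30568927 to 54608922 fragments per library; the value of 1 fragment was 0.688 to 1.25. Genes at or under 3 fragments were taken as not measurable, a floor for counting error only. The table had 0 columns of other samples.

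The effect of TBI was estimated separately in cortex and thalamus with limma 3.58.1 in R 4.3.3 (trended empirical Bayes) on log2(normalized count + 1), keeping named loci whose mean over the 12 libraries reached 10. P-values were adjusted by Benjamini-Hochberg over all loci tested, at 0.05. Fold changes are on that scale and understate changes of low genes. The difference of effects and the sham regions were contrasts in 1 fit of 24 libraries. The rat was no block there. Shared numbers tie the cortex and thalamus libraries of an animal: their deviations from the group means gave r between 0.00393 and 0.569 in the 12 rats (median 0.187, 10 over 0.1). edgeR 4.0.16 (quasi-likelihood, TMM) on the recovered whole fragments, added after seeing the data, called 4435 cortical and 5122 thalamic loci, against 4531 and 5516 with limma. The highest correlation between 2 libraries was 0.994, so all 24 were counted as separate. The limma step was tested on simulated data.

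The 8 genes and all lists were chosen with earlier results of these data known. Named are the 8 genes, every measured gene of the 3 families, Mtf1 and Gpr39, up to 2 called genes with the largest change per other list and region, and the 3 loci most like each of the 8. Promoters came from RefSeq (GRCr8), where 6 of 8 genes were found.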

Additional observations from a re-analysis of the deposited data

Results flagged for a closer look

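Each of 25 genes was examined in the 4 groups for a library far from the other 5 of its group, 100 groups in all, and 5 libraries stood out. The gap to the nearest library exceeded 0.625 of the range of the group, a bound that chance passes in about 1 of 20 groups. Mt1a in the cortex of TBI rat 24 had 337.664 normalized counts, with the next library at 173 and the lowest at 112. Slc30a1 in the thalamus of sham rat 32 had 1569.06, with the next at 1802, and Slc30a7 in the same library had 763.3, with the next at 950. In the cortex of sham rat 50, Slc39a7 had 2292.25, with the next at 2630, and Mtf1 had 975.213, with the next at 1059.

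The TBI effect differed between thalamus and cortex by limma's interaction for 3 genes outside the 8. Slc39a10 differed by 0.460943 on the log2 scale (thalamus minus cortex), from lower values in TBI cortex and slightly higher ones in TBI thalamus. Slc39a7 differed by -0.30318 and Slc39a13 by -0.296342, from values lower in TBI thalamus and slightly higher in TBI cortex. These slight rises did not pass in the main limma fits. The adjusted p was 0.0851 for Slc39a10 in the thalamus, and in the cortex 0.188 for Slc39a7 and 0.47 for Slc39a13. The cause of the differences between regions was not tested.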

How the results depend on the processing

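The called loci numbered 4531 in the cortex and 5516 in the thalamus. An adjusted p under 0.01 left 2436 and 3429, and a change of at least 1.5-fold left 1008 and 1330. Leaving out each library in turn gave 3671 to 5219 in the cortex, 4522 to 5442 in the thalamus, 813 to 1329 for the difference of effects (1138 with all) and 9307 to 9770 for the sham regions (9631 with all). With the rat as replicate block the difference of effects called 1301 loci and the sham regions 9901, and the block changed no call of the 16 other family genes. Of the called loci in the thalamus 40.95% were higher with the deposited scaling, 54.26% with TMM, 52.34% with upper quartile scaling and 55.1% with edgeR. For the difference of effects the share was 37.52% with the deposited scaling and 35.73% with TMM. It was 47.01% with upper quartile scaling and 51.93% with edgeR. No family gene past the threshold changed sign. Signs turned under some alternatives for values near 0: the TBI effect of Mt3 in both regions, of Slc30a3 and Slc30a6 in the thalamus and of Slc39a3 in the cortex, the sham regions for Slc39a8, and the difference of effects for Mt1a, Mt3, Slc30a3, Slc30a4, Slc30a9, Slc39a8, Slc39a9, Slc39a11 and Slc39a14. The log2 difference between TBI and sham rats ran over 22 alternatives from 1.21 to 1.54 for Mt1a and 1.09 to 1.32 for Mt2A in the cortex, and from 1.20 to 1.42 and 2.07 to 2.21 in the thalamus. Calls near the threshold depended on single libraries: Slc39a6 in the thalamus (adjusted p up to 0.0935) was lost with no filter on low values and without any of sham rats 26, 32, 34, 38, 50 and 55 or TBI rats 22, 52 and 56, and Mtf1 (up to 0.105) with no filter and without sham rats 32, 34, 38, 50 or 55 or TBI rats 22, 24, 45, 52 or 63. Slc30a4 in the cortex was gained without sham rat 55 or TBI rat 63 (down to 0.0105), Slc39a9 in the cortex (0.0319) and the difference for Slc39a4 (0.0261) without TBI rat 63, and Slc39a10 in the thalamus without TBI rat 52, with TMM, upper quartile scaling or edgeR (down to 0.0163). Slc39a11 in the thalamus passed with TMM and edgeR (down to 0.0392). Between sham regions Slc30a6 (up to 0.0726) was lost with edgeR and without sham rat 26 in the cortex or 32 in the thalamus, and Slc39a4 (0.0666) with limma-voom. Without the 2 farthest rats, 7 of the 16 correlations moved, from r of 0.209 to -0.699 for Mt1a with Mt3 and from 0.421 to -0.776 for Mt2A with Mt3 in sham thalamus.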

Other observations

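Over all tested loci, limma called 14.3% higher and 14.9% lower after TBI in the cortex, and for the thalamus the shares were 14.5% and 20.9%. The lists below were drawn up with earlier results of these data known. From each, up to 2 genes with the largest called change per region are named. Of 17 genes of copper handling, 3 were higher and 2 lower in the cortex and 3 higher and 4 lower in the thalamus, with medians of 0.04 and 0.01 on the log2 scale. Cp, encoding the copper oxidase ceruloplasmin, rose by 1.38 (SE 0.13, adjusted p = 7.68e-06) in the cortex and by 1.98 (SE 0.22, adjusted p = 1.61e-05) in the thalamus. Atp7b, a copper pump, rose by 0.57 (SE 0.11, adjusted p = 0.00142) in the cortex, and Steap4, a metalloreductase, by 1.44 (SE 0.27, adjusted p = 0.000856) in the thalamus.

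Of 12 genes of manganese and iron transport, 2 were higher and 4 lower in the cortex and 1 higher and 4 lower in the thalamus, to be read against those same shares of all loci. Tf, encoding transferrin, rose by 0.59 (SE 0.08, adjusted p = 9.73e-05) and 0.60 (SE 0.10, adjusted p = 0.000336), and Tfrc, encoding its receptor, fell by 0.63 (SE 0.11, adjusted p = 0.000678) in the cortex. Atp13a2, encoding a lysosomal pump, fell by 0.44 (SE 0.09, adjusted p = 0.00266) in the thalamus. Corticosteroids also induce metallothioneins. Of 13 tested genes that corticosteroids induce, Mt2A and Pdk4 were above the threshold as higher in both regions, and 1 was lower in the cortex and 3 in the thalamus. Mt2A was chosen on these contrasts and counts for nothing here, which leaves Pdk4, a mitochondrial kinase, at 0.44 (SE 0.13, adjusted p = 0.0208) and 0.64 (SE 0.16, adjusted p = 0.00643). Limma called 14.3% of all tested cortical loci and 14.5% of all tested thalamic loci higher. The shares called lower were 14.9% and 20.9%. With Mt2A included, the median log2 difference of this list was 0.10 for cortex and -0.08 for thalamus. A part of corticosteroids in these values was not tested.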
